A study of Mus musculus with 2 samples.

Results

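The genes described here are the matrix metalloproteases (Mmp), the membrane-bound ADAM proteases (Adam), the secreted ADAMTS proteases and their ADAMTS-like relatives (Adamts, Adamtsl), and the tissue inhibitors of metalloproteases (Timp). They were chosen by name, as the protein-coding rows whose symbol begins with Mmp, Adam or Timp and a digit, or with Adamts. This gave 85 of 21821 protein-coding rows: 23 Mmp, 34 Adam, 19 Adamts, 5 Adamtsl and 4 Timp genes. The cells are TgS1, a line of mouse Schwann cells with a transgene for human transthyretin, whose genotype the labels give as TTR V30M tg. The groups compared are 1 library from long-term culture in DMEM, which the design text writes as S-DEMEM and whose additions are not spelled out, and 1 from long-term culture in a medium called SCM, which the labels do not spell out. Both share the cell line and the transgene, and any difference given here is between 2 libraries of 1 line, with no replicate check and no p-value.

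Schwann cells ensheathe the axons of peripheral nerves. Matrix metalloproteases and ADAMTS proteases are zinc enzymes that cut collagens, proteoglycans and other matrix proteins, while ADAM proteases sit in the plasma membrane and release the outer parts of receptors, growth factors and adhesion molecules. TIMPs are small secreted proteins that block the active site of these enzymes. In injured nerve, metalloproteases are known for remodelling the matrix around regrowing axons, and ADAM10 and ADAM17 for cutting neuregulin and adhesion molecules between axon and Schwann cell.

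The unit is FPKM, reads scaled by gene length and by the library total, which allows levels of different genes to be set side by side. The libraries held 29085791 (DMEM) and 36666676 (SCM) reads, recovered from the FPKM steps, and each ratio carries a 95% exact (Clopper-Pearson) interval from its reads. These intervals cover counting error only. A gene is called measured where either library reached 1 FPKM, and higher or lower when log2((FPKM in SCM + 1) / (FPKM in DMEM + 1)) passes 2-fold. Fold values are plain FPKM ratios. Schwann cell markers were present in both libraries, with Sox10 at 126 and 113 FPKM and Cdh19 at 816 and 835 FPKM in DMEM and SCM, and 9 of 10 such markers were measured. The fibroblast markers Col1a1, Lum, Dpt and Twist2, the macrophage markers Adgre1, C1qa, Mrc1 and Tyrobp and the endothelial markers Cdh5, Kdr, Emcn, Cldn5 and Tie1 had 0 reads in both. Summed over each list in DMEM and SCM, 9 fibroblast markers came to 0.917 and 3.26 FPKM, of which Col1a2 made 0.742 and 3.15 FPKM and Pdgfra 0.171 and 0.0408 FPKM, 9 macrophage markers to 1.44 and 1.51 FPKM, and 7 endothelial markers to 0.0552 and 0.0277 FPKM. Pericyte markers (2 of 7 measured) came to 8.18 and 12.5 FPKM, perineurial markers (3 of 5) to 41.7 and 41.9 FPKM and neuron markers (1 of 7, Tubb3) to 60.5 and 45.3 FPKM. The pericyte sum was mostly Pdgfrb, at 7.86 and 10.6 FPKM, and the perineurial sum mostly Moxd1, at 37.7 and 34.6 FPKM. In each of these 2 lists 1 gene passed 2-fold upwards and 0 downwards. They were Cspg4, at 0.314 and 1.84 FPKM, and Itgb4, at 0.941 and 4.25 FPKM. The part of other cells in the results was not tested.

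Of the 85 genes, 24 were measured (28.2%, beside 46.2% of all protein-coding rows), 38 had 0 reads in both libraries and 23 lay between. Among the 24, 4 were at least 2-fold higher in SCM (Adamts9, Adam11, Mmp15 and Adamts14) and 0 were lower. Over all 10081 measured protein-coding rows 2.48% were called higher and 1.44% lower. At 1.5-fold on the same scale 9 of the 24 were higher and 0 lower, beside 6.44% and 4.99% of those rows. In plain FPKM ratios, a rule added after the values were seen, 34 of the 85 genes had at least 20 reads in the higher library, of which 7 were at least 2-fold higher and 1 lower, beside 6.36% and 4.19% of 11728 protein-coding rows. Over the 24 genes the median log2 ratio was 0.24, beside -0.03 over the 10081 measured protein-coding rows. Above 0 lay 14 of the 24 (58.3%), beside 45.6% of those 10081 rows. In bulk RNA, more cells with a transcript and more of it per cell cannot be told apart. Because the low genes pass the filter through their higher library, these counts describe the measured genes and not the family. The counting interval lay wholly above 1 for 14 genes, beside 31.4% of measured protein-coding rows, and wholly below 1 for 8, beside 38.8%.

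The promoters of the genes past 2-fold are given first, because these genes differed in the same direction. Promoter sequences of RefSeq (GRCm38.p6, 250 bases before to 50 after the start) matched 54 of the 85 genes, among them 17 of the 24 measured and 3 of the 4 past 2-fold. Capitals mark the GC box, GGGCGG on either strand, a letter string bound by SP1-type factors. The promoters lie at chr6:92943485-92943784 (Adamts9, minus strand), chr8:95352046-95352345 (Mmp15, plus strand) and chr10:61273370-61273669 (Adamts14, minus strand), and their order below is that of the ratios.
Adamts9: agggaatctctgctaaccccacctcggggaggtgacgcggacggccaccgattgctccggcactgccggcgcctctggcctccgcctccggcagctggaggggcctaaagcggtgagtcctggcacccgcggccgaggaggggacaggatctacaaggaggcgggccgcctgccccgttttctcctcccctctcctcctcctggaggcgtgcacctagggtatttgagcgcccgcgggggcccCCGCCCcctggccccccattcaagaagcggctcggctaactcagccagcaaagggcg
Mmp15: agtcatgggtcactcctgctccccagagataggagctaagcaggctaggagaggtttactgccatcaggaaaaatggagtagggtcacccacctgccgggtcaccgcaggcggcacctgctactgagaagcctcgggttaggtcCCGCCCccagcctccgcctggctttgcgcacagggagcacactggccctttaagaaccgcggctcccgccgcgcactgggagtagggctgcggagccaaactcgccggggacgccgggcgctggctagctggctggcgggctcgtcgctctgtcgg
Adamts14: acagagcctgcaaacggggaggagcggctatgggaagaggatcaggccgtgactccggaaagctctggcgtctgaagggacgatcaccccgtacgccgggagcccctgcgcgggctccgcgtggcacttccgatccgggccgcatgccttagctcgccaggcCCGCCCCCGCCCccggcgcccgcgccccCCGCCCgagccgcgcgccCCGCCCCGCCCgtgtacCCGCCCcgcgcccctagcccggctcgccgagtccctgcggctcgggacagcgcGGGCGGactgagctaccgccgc

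The Adamts14 promoter held 7 GC boxes, some of them overlapping, and those of Adamts9 and Mmp15 held 1 each. A GC box was found in 14 of 17 measured genes with a promoter, in 13 of 37 unmeasured ones and in 35.7% of all 32851 promoters. The promoters of measured genes were also richer in G and C, with a median of 66.3% beside 50.2% for the unmeasured genes and 52.7% for all promoters, so the motif and the base composition move together, and the part of either was not tested. These motif searches were chosen after the values had been seen.

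A second set of promoters belongs to genes that the cells hardly transcribed. On chromosome 9, 10 Mmp genes lie within 427 kb (7272514 to 7699585, GRCm38): Mmp13, Mmp12, Mmp1b, Mmp3, Mmp1a, Mmp10, Mmp8, Mmp27, Mmp20 and Mmp7, which encode collagenases, stromelysins, macrophage elastase, matrilysin and enamelysin. None of them was measured, and 8 had 0 reads in both libraries. The exceptions were Mmp12, with 6 reads in DMEM and 24 in SCM, and Mmp10, with 4 and 10. The AP-1 motif TGANTCA, which reads the same on both strands and is bound by Jun and Fos proteins, was found in 8 of these 10 promoters. It was found in 0 of the 17 measured genes with a promoter and in 7.81% of all promoters, and 0 of 17 is near that share. Among 37 unmeasured genes it was found in 13, which include these same 8. The promoters of unmeasured genes were poorer in G and C than those of measured ones (medians of 50.2% and 66.3%), and the part of this was not tested. The 29 bases around each match are shown because they let these genes be compared directly, with the motif in capitals.
Mmp10: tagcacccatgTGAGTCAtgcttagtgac
Mmp12: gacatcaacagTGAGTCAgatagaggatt
Mmp13: ccccaaagtggTGACTCAtcactatcatg
Mmp1a: gttgtcaaccaTGAGTCAcatagcctctg
Mmp1b: gttacaaagccTGAGTCAtatagcctctg
Mmp20: catttgagacaTGAATCAtcacttacagg
Mmp3: ggaagcaattaTGAGTCAgttttcgggtg
Mmp7: aagtgtgcaaaTGAGTCAcctatttccac

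On GRCm38.p6 these windows lie at chr9:7502268-7502296 (Mmp10), chr9:7347319-7347347 (Mmp12), chr9:7272468-7272496 (Mmp13), chr9:7464057-7464085 (Mmp1a), chr9:7388102-7388130 (Mmp1b), chr9:7628125-7628153 (Mmp20), chr9:7445765-7445793 (Mmp3), chr9:7692016-7692044 (Mmp7), Mmp1b on the minus strand and the others on the plus strand. Counted from the transcription start, the motif began at -63 (Mmp10), -44 (Mmp12), -35 (Mmp13), -73 (Mmp1a), -93 (Mmp1b), -95 (Mmp20), -46 (Mmp3), -63 (Mmp7). The letters were TGAGTCA in 6 of them, TGACTCA in Mmp13 and TGAATCA in Mmp20. The TATA box TATAAA, searched on both strands, was in 9 of the 10 promoters and in 13.6% of all promoters. Jun, which encodes an AP-1 subunit, had 236 FPKM in DMEM against 168 in SCM. A motif match is a description of the letters and not of binding.

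Of the 23 Mmp genes 6 were measured, 1 was higher, 0 were lower and the median log2 ratio was -0.18. Mmp14 (membrane-type 1 MMP), a collagenase of the cell surface that also activates pro-MMP2, had 75.9 FPKM in DMEM against 60.7 in SCM and ranked highest of its class in both. It was 1.25-fold lower in SCM (1.22 to 1.28). Mmp15 (membrane-type 2 MMP), its close relative with the same kind of transmembrane anchor, stood at 7.20 FPKM in DMEM, from 1130 reads, and at 22.7 FPKM in SCM, from 4489 reads. Mmp15 was thus the Mmp gene past 2-fold, 3.15-fold higher (2.95 to 3.37), and moved from rank 5073 to rank 1819 among protein-coding rows. It lies on chromosome 8, 95352268 to 95375080.

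Mmp17 (membrane-type 4 MMP) is held at the surface by a lipid (GPI) anchor. Its level was 31.9 FPKM in DMEM against 49.0 in SCM, 1.54-fold higher (1.49 to 1.58), short of the threshold. The 3 membrane-type genes that were measured therefore differed in both directions. Mmp19, a secreted enzyme, had 19.9 and 19.3 FPKM, and its counting interval (0.917 to 1.032) held 1. Mmp28, or epilysin, had 6.25 and 4.43 FPKM and was 1.41-fold lower (1.27 to 1.57). Mmp11, or stromelysin-3, which is activated inside the cell by furin, had 2.08 and 1.32 FPKM and was 1.58-fold lower (1.25 to 1.998). The summed level of the class was 144 FPKM in DMEM against 158 in SCM, of which Mmp14 made 52.7% and 38.4%.

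The gelatinases Mmp2 and Mmp9, which are often followed in nerve injury and are named here after their values were seen, were at or near 0. Mmp2, whose proenzyme MMP14 activates, had 19 reads in DMEM (0.194 FPKM) and 12 in SCM (0.0971 FPKM), and Mmp9 had 0 reads in both, where 3 reads would have been 0.0291 and 0.0231 FPKM. Mmp23 had 35 and 36 reads and lay under the filter. In all, 17 Mmp genes were under the filter, 11 of them with 0 reads.

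**Figure D1:**
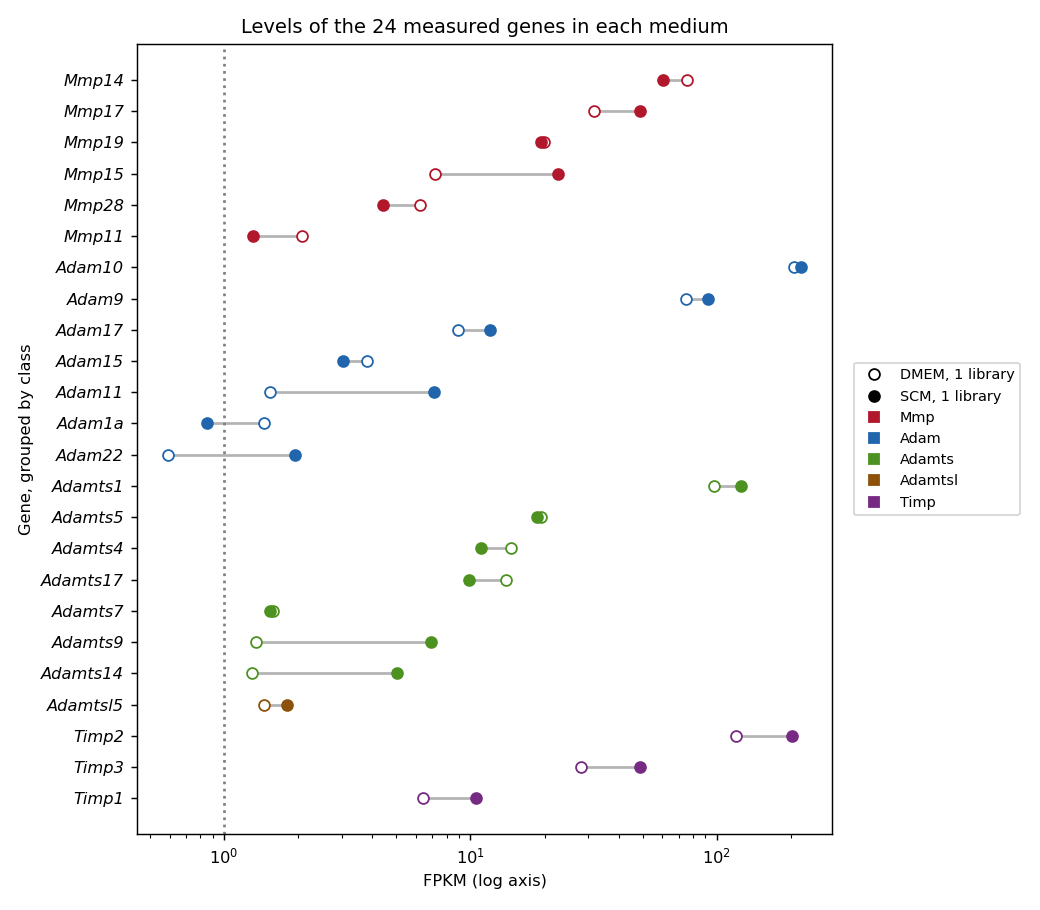
FPKM (log axis) of the 24 measured genes, 1 line per gene, grouped by class, with open circles for the DMEM library and filled circles for the SCM library; the dotted line marks the filter of 1 FPKM. Mmp15, Adam11, Adam22, Adamts9 and Adamts14 show the widest gaps, all towards SCM, while Adam10 is the highest gene in both libraries.

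Among the ADAM proteases, the abundant sheddases lay within 2-fold and Adam11 passed it. Of 34 Adam genes 7 were measured, 1 was higher, 0 were lower and the median log2 ratio was 0.29. Adam10, which releases Notch receptors, cadherins and adhesion molecules of the L1 family, had 205 FPKM in DMEM against 219 in SCM, ranks 98 and 82 among protein-coding rows. It was 1.07-fold higher (1.05 to 1.09). Adam9, another membrane sheddase, had 74.9 and 92.0 FPKM, 1.23-fold higher (1.20 to 1.26). Adam17, which releases TNF and EGF receptor ligands and cuts neuregulin, stood well below both at 8.89 and 12.0 FPKM, 1.35-fold higher (1.28 to 1.43). These 3 genes kept their order in both libraries. Adam10 made 68.5% of the summed Adam level in DMEM and 64.7% in SCM, of sums of 300 and 339 FPKM.

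Adam11, Adam22 and Adam23 form a group of ADAM proteins that lack protease activity and bind secreted LGI proteins. Adam11 stood at 1.53 FPKM in DMEM, from 252 reads, and at 7.14 FPKM in SCM, from 1484 reads, 4.67-fold higher (4.08 to 5.36). Adam22, the receptor through which LGI4 acts in peripheral myelination, had 0.594 FPKM (248 reads) and 1.94 FPKM (1020 reads), 3.26-fold higher (2.84 to 3.76). On the log2(FPKM + 1) scale its value was 0.88, so it stood just outside the threshold. Adam23 had 0.566 and 0.877 FPKM, under the filter, from 295 and 576 reads, 1.55-fold higher (1.34 to 1.79). All 3 were higher in SCM in plain FPKM. Adam11 lies on chromosome 11, 102761439 to 102780262, Adam22 on chromosome 5, 8072352 to 8368160, and Adam23 on chromosome 1, 63445891 to 63596276 (GRCm38). Of the 4 LGI ligand genes 1 was measured. This was Lgi4, the gene of the Schwann cell ligand of ADAM22, which had 117 FPKM in DMEM against 429 in SCM, 3.66-fold higher (3.60 to 3.73), and overlaps the row of Fxyd3, at 0.730 and 4.97 FPKM.

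The remaining measured Adam genes were lower. Adam15, a disintegrin of the cell surface, had 3.79 and 3.04 FPKM, 1.25-fold lower (1.12 to 1.39). Adam1a, a gene of the sperm fertilin family, had 1.46 and 0.850 FPKM, 1.71-fold lower (1.33 to 2.21), and reads shared with its relative Adam1b (7 and 1 reads) were not measured. Under the filter, Adam8, a sheddase of immune cells, had 0.927 FPKM (125 reads) in DMEM and 0.435 (74 reads) in SCM, 2.13-fold lower (1.58 to 2.88). Adam32 (75 reads in each library) and Adam4 (43 and 47 reads) had intervals that held 1. Of the 27 Adam genes under the filter 17 had 0 reads, among them all 8 of 2 groups of neighbouring Adam genes on chromosome 8 (Adam24, Adam25, Adam20 and Adam39, and Adam26b, Adam26a, Adam34l and Adam34). Adam9 and Adam32 lie on the same chromosome, within 415 kb of Adam3, Adam5 and Adam18, which had 0 or 1 reads in each library.

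**Figure D2:**
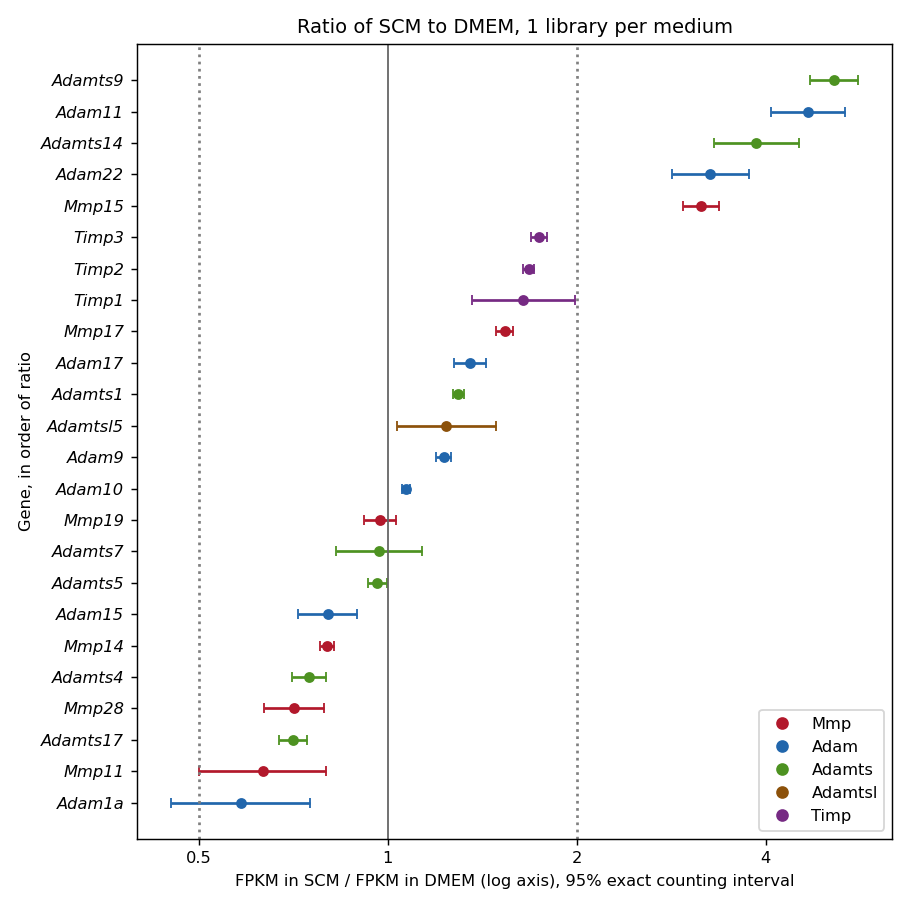
Ratio of FPKM in SCM to FPKM in DMEM (log axis) for the 24 measured genes in order of ratio, with 95% exact counting intervals from 1 library per medium; dotted lines mark 2-fold in plain FPKM. Adamts9, Adam11, Adamts14, Adam22 and Mmp15 lie above 2, the 3 Timp genes lie between 1.64 and 1.75, and the counting intervals of Mmp19 and Adamts7 hold 1.

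ADAMTS proteases showed 2 of the 4 genes past 2-fold, while Adamts1, which made most of the class, lay within 2-fold, as did Adamts4 and Adamts5. Of 19 Adamts genes 7 were measured, 2 were higher, 0 were lower and the median log2 ratio was -0.03. Adamts9, a secreted protease that cuts versican and fibronectin, stood at 1.34 FPKM in DMEM, from 588 reads, and at 6.91 FPKM in SCM, from 3810 reads. It was 5.14-fold higher (4.71 to 5.62), the highest ratio among the 24 genes, and lies on chromosome 6, 92772699 to 92943492. Adamts14, which trims the amino-terminal propeptide of fibrillar procollagens, had 1.30 FPKM (197 reads) and 5.03 FPKM (958 reads). It was 3.86-fold higher (3.31 to 4.52) and lies on chromosome 10, 61197112 to 61273438. Its relatives Adamts2 and Adamts3, which have the same activity and are named here after their values were seen, had 0 reads in both libraries.

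Adamts1, a protease of versican and aggrecan, was the most abundant of the class at 97.2 FPKM in DMEM against 126 in SCM, 1.30-fold higher (1.27 to 1.32). Its neighbour Adamts5, also an aggrecan and versican protease, had 19.3 and 18.6 FPKM, 1.04-fold lower (1.004 to 1.075). The pair lies within 108 kb on chromosome 16, 85793827 to 85901828. Adamts4, the third of these enzymes, had 14.7 and 10.99 FPKM, 1.33-fold lower (1.25 to 1.42). Its exons overlap another measured row, and no source used here gives the strand setting of the counting. Adamts17, a gene tied to fibrillin, had 13.9 and 9.85 FPKM, 1.41-fold lower (1.34 to 1.49). Adamts7 had 1.58 and 1.53 FPKM, and its interval (0.827 to 1.136) held 1. The exons of Adamts7, Adam17, Mmp19 and Mmp28 also overlap another measured row, for Mmp19 that of Tmem198b at 14.4 and 15.8 FPKM. The class summed to 150 FPKM in DMEM against 180 in SCM, and Adamts1 made 64.8% and 70.0% of these sums.

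Below the filter, Adamts15 had 0 reads in DMEM and 55 in SCM (0.145 FPKM). The SCM level was 14.5-fold above a set floor of 3 reads in the DMEM library. The counting interval of its ratio began at 11.4. Adamts6 had 0.547 and 0.692 FPKM, 1.27-fold higher (1.01 to 1.60), and Adamts12 had 31 and 57 reads, with an interval (0.926 to 2.337) that held 1. Of the ADAMTS-like genes, which encode matrix proteins without a protease domain, Adamtsl5 was measured at 1.45 and 1.80 FPKM, 1.24-fold higher (1.03 to 1.49). Adamtsl4, a fibrillin-binding protein gene, had 29 and 71 reads, 1.94-fold higher (1.25 to 3.103).

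The 3 measured Timp genes had ratios between 1.64 and 1.75, and 0 of them passed 2-fold. Timp2, which inhibits MMPs and also takes part in the activation of pro-MMP2 by MMP14, stood at 120 FPKM in DMEM, from 13596 reads, and at 201 FPKM in SCM, from 28756 reads, 1.68-fold higher (1.64 to 1.71). Timp3, which binds to the matrix and also inhibits ADAM17 and ADAMTS enzymes, had 28.0 and 48.9 FPKM, 1.75-fold higher (1.69 to 1.80). Timp1, the inducible secreted inhibitor, had 6.43 and 10.6 FPKM, 1.64-fold higher (1.36 to 1.99). The 3 counting intervals overlap. The fourth gene, Timp4, lay under the filter with 2 reads in DMEM and 19 in SCM, a ratio of 7.54 (1.82 to 66.7). Summed over the class the level was 154 FPKM in DMEM against 261 in SCM, a ratio of 1.69, beside ratios of sums of 1.10 for Mmp, 1.13 for Adam and 1.20 for Adamts genes. The Adam, Adamts and Timp sums rest mostly on 1 or 2 genes each, and Timp2 made 77.7% and 77.2% of the Timp sum. The Mmp sum was spread over more genes, which differed in both directions. In DMEM and SCM, Mmp14 had 75.9 and 60.7 FPKM, Mmp17 31.9 and 49.0, Mmp15 7.20 and 22.7 and Mmp19 19.9 and 19.3.

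**Figure D3:**
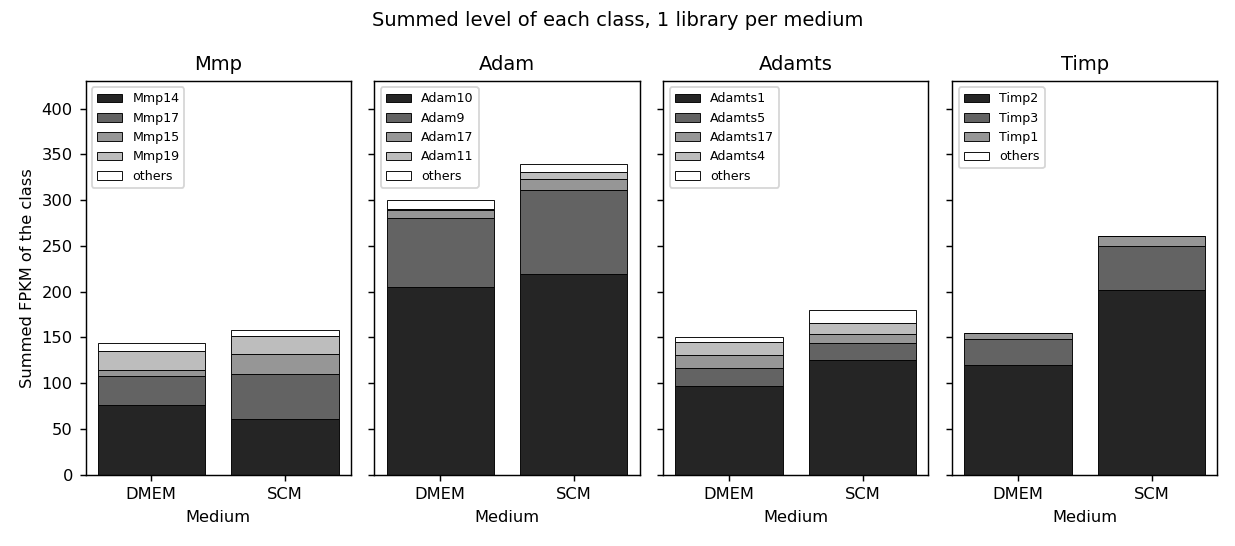
Summed FPKM of all members of the Mmp, Adam, Adamts and Timp classes in each medium (bars start at 0, 1 library per medium), split by named genes, with the rest of each class as others. The Timp bar goes from 154 to 261 FPKM, and the Mmp, Adam and Adamts bars differ by 1.10 to 1.20 times.

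Genes that act on these proteases were compared from lists drawn up with the family. Of 12 measured activators and regulators of 18, 2 were higher and 2 lower, beside 2.48% and 1.44% of measured protein-coding rows. Plat, the tissue plasminogen activator gene, had 5.50 and 14.1 FPKM, 2.55-fold higher (2.38 to 2.75), and Pcsk6, a proprotein convertase gene, 0.457 and 2.31 FPKM. On the lower side, Plaur, the urokinase receptor gene, had 3.18 and 0.479 FPKM, 6.63-fold lower (4.82 to 9.30). The median of this list was 0.03 beside -0.03 over all measured protein-coding rows. Partners of ADAM10 and ADAM17, the iRhoms and TspanC8 tetraspanins that set where these proteases go, had 0 of 6 measured genes past 2-fold and a median of -0.01. The widest of them was Tspan15, a tetraspanin that carries ADAM10, at 6.24 FPKM in DMEM against 10.7 in SCM, 1.71-fold higher (1.61 to 1.82), while Tspan5 had 4.79 and 3.41, Tspan17 12.2 and 15.8 and Rhbdf1 20.8 and 18.4 FPKM.

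Related proteases had 2 of 11 measured genes lower and 0 higher, beside 1.44% and 2.48% of measured protein-coding rows. Both lower genes belong to the tolloid group, which trims the carboxy-terminal propeptide of procollagens. Tll1 had 5.42 FPKM in DMEM against 1.22 in SCM, 4.45-fold lower (3.95 to 5.03), and Bmp1 21.3 and 10.2 FPKM, 2.10-fold lower (2.01 to 2.19). Bmp1 lay on the edge of the call on the log2(FPKM + 1) scale. The amino-terminal procollagen protease gene Adamts14 and these carboxy-terminal ones thus lay on opposite sides of 1. The median of the list was 0.04, with Bace1, the beta-secretase gene, at 7.03 and 11.5 FPKM and Cpe, a carboxypeptidase gene, at 543 and 758 FPKM. The exons of Bace1 overlap 3 other measured rows.

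Substrates of ADAM proteases on Schwann cells numbered 26, of which 18 were measured. Of these, 3 were past 2-fold upwards and 1 downwards, beside 2.48% and 1.44% of measured protein-coding rows, and the median was 0.25. The adhesion molecule genes Chl1, at 3.48 and 34.1 FPKM, and Ncam1, at 61.3 and 199.96 FPKM, were 9.79-fold (9.24 to 10.4) and 3.26-fold higher (3.20 to 3.32). Sdc4, a cell surface proteoglycan gene, had 33.9 and 71.8 FPKM, and Btc, the EGF family ligand gene betacellulin, went from 18.0 to 6.77 FPKM, 2.66-fold lower (2.47 to 2.85). Of 16 ADAMTS substrates 3 were measured: Vcan at 1.36 and 1.79 FPKM, Fn1 at 0.912 and 1.33 FPKM and Col1a2 at 0.742 and 3.15 FPKM, the last past 2-fold. Vcan encodes versican, a hyalectan cut by ADAMTS1, ADAMTS4, ADAMTS5 and ADAMTS9, and its FPKM lay below that of Adamts1, Adamts4 and Adamts5 in both libraries. Adamts9, at 1.34 FPKM in DMEM and 6.91 in SCM, lay just below Vcan in DMEM and above it in SCM.

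Transcription factors known to act on MMP genes numbered 17. Of the 16 measured, 4 were lower and 1 was higher, beside 1.44% and 2.48% of measured protein-coding rows. The median was -0.15. Runx1 had 7.08 FPKM in DMEM against 1.10 in SCM, 6.42-fold lower (5.82 to 7.09). The AP-1 subunit genes Fosl2, at 32.0 and 9.82 FPKM, and Fosl1, at 4.24 and 1.14 FPKM, were 3.25-fold and 3.72-fold lower, and the ETS factor gene Etv1 was 4.14-fold higher (3.83 to 4.47) from 2.04 FPKM. Fosl1 overlaps another measured row, as does Ncam1.

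**Figure D4:**
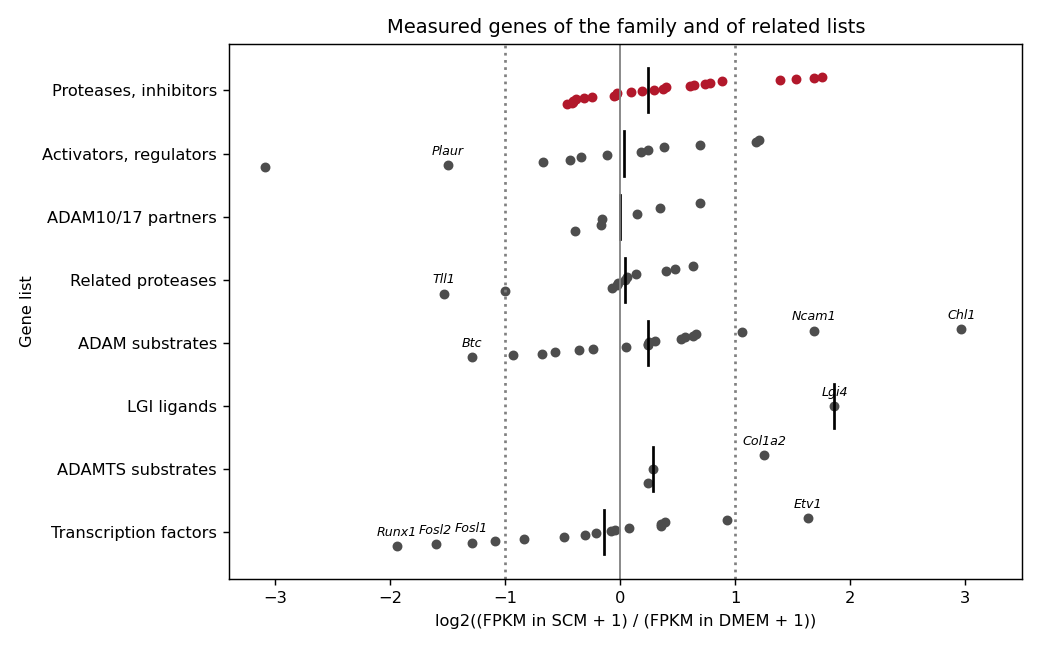
Values of log2((FPKM in SCM + 1) / (FPKM in DMEM + 1)) for the 24 measured proteases and inhibitors (red) and for the measured genes of 7 related lists (grey), 1 point per gene, with a bar at each median and dotted lines at 2-fold. The proteases and inhibitors run from -0.46 to 1.75, with 0 points below -1, and the related lists reach up to Chl1 at 2.97.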

How the data were processed

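Total RNA of 2 TgS1 cultures was made into stranded libraries with the SMARTer total RNA kit and converted for DNBSEQ, per the labels' protocols. The authors deposited FPKM values per gene with the gene length, biotype and coordinates. Per the submitters' processing notes the tools included STAR 2.7.9a, featureCounts 2.0.1, Trimmomatic 0.39, Trim Galore and cutadapt 3.1, with the builds mm10 and GRCm38.p6. No source used here gives the strand setting. FPKM times length gave whole reads for 100% of rows (within 0.01 of a read). A gene length that spans all exons lowers the FPKM of genes with long, rarely used exons.

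Ratios used log2(FPKM + 1), a filter of 1 FPKM in 1 or both libraries and a 2-fold threshold. The code was tried on simulated reads with planted changes and counting error only. That trial held no spread between cultures, so it cannot show how the calls behave under such spread. With 1 library per medium no model was fitted. The columns were matched to the titles by medium. They carry the numbers DMEM1 and SCM3, and the FPKM values used here held 0 other sample columns. Every measured gene was named, as were those under the filter with at least 20 reads, and up to 4 genes of the largest absolute log2 ratio in each related list. Other names were chosen after their values were seen. A gene that the rule would name may be left unreported here, and it still enters the counts and medians of its list. The genes and lists were chosen with earlier results of these data known. Positions are from GENCODE M21 (GRCm38). The table's own start matched it for 6 of 85 genes, so the table's coordinates served only for overlaps between rows. Alternatives changed the pseudocount, filter, scaling, unit and threshold. Python 3.11.15, pandas 2.3.3 and SciPy 1.17.1 were used.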

Additional observations from a re-analysis of the deposited data

How the results depend on the processing

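With 1 library per medium, the spread between cultures is unknown and the intervals are lower limits of the error. The 4 genes called higher were called under every alternative that was run except a pseudocount of 3 FPKM, where Adamts14 was not called. A pseudocount of 0.1 FPKM and TPM both added Adam22. The number called higher stayed within 3 to 5 under all changes of pseudocount, filter, scaling and unit. At a 1.5-fold threshold 9 genes were higher, which adds Adam22, Mmp17 and the Timp genes Timp1, Timp2 and Timp3 (6.44% of measured protein-coding rows were higher and 4.99% lower at that threshold), and 0 were lower. With plain FPKM ratios and at least 20 reads in the higher library, an alternative chosen after seeing the data, 7 of 34 genes were higher, with Adam22, Adamts15 and Mmp12 added, and 1 was lower, Adam8, beside 6.36% and 4.19% of protein-coding rows. Scaling to the median ratio of protein-coding rows multiplied SCM values by 1.03, 0.04 on a log2 scale without pseudocount. Genes under 1 FPKM are limited by depth. No paired analysis was possible because each medium has 1 library.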
